A study of Mus musculus with 5 samples.

Results

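The 27 genes described here make cholesterol or control its making, and they were taken by their symbols from the 27998 features of the deposited matrices. They comprise 7 genes of the mevalonate pathway (Acat2, Hmgcs1, Mvk, Pmvk, Mvd, Idi1 and Fdps), Ggps1 at the isoprenoid branch, 3 genes from squalene to lanosterol (Fdft1, Sqle and Lss), and 9 from lanosterol to cholesterol (Cyp51, Tm7sf2, Lbr, Msmo1, Nsdhl, Hsd17b7, Ebp, Sc5d and Dhcr7). The other members are 5 control genes (Srebf1, Srebf2, Scap, Insig1 and Insig2) and 2 genes of sterol transport and storage (Stard4 and Soat1). Their RNA was followed in Leydig-like cells, Sertoli-like cells and germ cells of the mouse testis. Whole testes whose spermatogenesis had been synchronized were profiled by droplet single-cell RNA sequencing at 0 h (titled as the control), 144 h, 350.4 h, 556.8 h and 763.2 h. The samples after 0 h stand at repeated returns of stages VIII to IX of the seminiferous cycle, and each time had 1 library. At 0 h, 2210 of 2231 germ cells were undifferentiated spermatogonia-like, and 0 were pachytene-or-later-like or spermatid-like. Neither strain nor age, neither the number of animals in a library nor the synchronizing treatment is given in the sources used here. Synchronization was common to all, and the 0 h library shares it with the others, so none of them is an untreated testis.

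Cells build cholesterol from acetyl-CoA through mevalonate, isoprenoid diphosphates, squalene and lanosterol, and a chain of sterol enzymes then turns lanosterol into cholesterol. When membrane cholesterol is low, SCAP carries the SREBP transcription factors, products of Srebf1 and Srebf2, out of the endoplasmic reticulum, and once cleaved they switch on most genes of the pathway. INSIG proteins hold SCAP back when sterols are plentiful. In the testis, Leydig cells turn cholesterol into testosterone and keep a reserve as cholesteryl ester. Sterols just beyond the CYP51 step, the meiosis-activating sterols, are known to build up in the testis.

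Most of these genes share a promoter feature, and 5 of the promoters are shown because their genes carry the main contrasts below: Hmgcs1 high in Leydig-like cells, Idi1 kept through meiosis, Cyp51 low in pachytene cells and high in round spermatids, Msmo1 low from pachytene on, and Ebp high in Sertoli-like cells. Each line gives the 180 bases before the gene's RefSeq start, 5′ to 3′ on the gene's strand, and the build is GRCm38.p6. Capitals mark the CCAAT box (CCAAT, or ATTGG where it lies on the other strand) and, in Hmgcs1, also the sterol regulatory element TCACNCCAC, here TCACCCCAC. Hmgcs1 is at chr13:119690171-119690350 on the plus strand, Idi1 at chr13:8885426-8885605 on the plus strand, Cyp51 at chr5:4104698-4104877 on the minus strand, Msmo1 at chr8:64733579-64733758 on the minus strand and Ebp at chrX:8193513-8193692 on the minus strand.
Hmgcs1: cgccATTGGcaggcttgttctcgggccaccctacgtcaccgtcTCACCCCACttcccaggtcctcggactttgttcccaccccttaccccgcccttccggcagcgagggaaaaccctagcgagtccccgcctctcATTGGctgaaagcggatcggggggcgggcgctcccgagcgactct
Idi1: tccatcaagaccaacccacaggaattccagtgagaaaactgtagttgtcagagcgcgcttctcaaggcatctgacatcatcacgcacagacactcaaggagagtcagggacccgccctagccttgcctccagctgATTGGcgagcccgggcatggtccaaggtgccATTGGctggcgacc
Cyp51: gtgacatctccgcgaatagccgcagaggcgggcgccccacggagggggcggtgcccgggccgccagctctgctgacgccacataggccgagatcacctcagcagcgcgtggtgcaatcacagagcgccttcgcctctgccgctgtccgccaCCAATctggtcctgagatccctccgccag
Msmo1: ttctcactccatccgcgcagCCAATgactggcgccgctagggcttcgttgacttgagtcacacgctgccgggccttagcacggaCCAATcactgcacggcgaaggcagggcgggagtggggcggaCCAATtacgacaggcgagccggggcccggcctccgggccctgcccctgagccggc
Ebp: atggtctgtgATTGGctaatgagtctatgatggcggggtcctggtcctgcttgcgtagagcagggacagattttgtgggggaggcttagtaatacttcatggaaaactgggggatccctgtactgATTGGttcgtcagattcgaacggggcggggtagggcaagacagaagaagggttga

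Promoter windows (250 bases before to 50 after the start, both strands searched) were at hand for 23 of the 27 genes, 31 windows in all since some genes have several starts. A CCAAT box stood in 22 of the 31 member windows (71.0%), covering 21 of the 23 genes, and in 37.4% of all 32851 windows. The E-box CACGTG stood in 6 member windows (19.4%), those of Dhcr7, Hsd17b7, Insig1, Sc5d and Scap, and in 7.15% of all windows. The strict sterol regulatory element TCACNCCAC was found in the Hmgcs1 window alone among the members, and in 1.24% of all windows. The cAMP response element TGACGTCA was found in no member window and in 1.79% of all windows. Such matches describe the letters in these windows and do not show that a factor binds there. The CCAAT box is short and common in promoters, and the 5 printed promoters each hold at least 1 although their genes had different patterns across cells.

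The libraries held 7441 to 11987 barcodes and 75578147 to 118147393 UMIs (unique molecular identifiers, each a counted RNA molecule), and 4658 to 11082 cells a library were kept. Any pair of libraries shared 11 to 37 barcodes, at most 0.453% of the smaller one. Cells were clustered without the 27 genes and named from marker genes, so a class is called, for example, Leydig-like, and a class was used in a library from 20 cells on. Leydig-like cells numbered 331 at 0 h and 155 at 144 h, and fewer than 20 later; Sertoli-like cells numbered 1529, 2344, 543 and 53 from 0 to 556.8 h. The 11 Leydig markers summed to 8398 CPM (the usual per-depth scale, here UMIs of a gene relative to all UMIs of its class) at 144 h and 8754 CPM at 0 h in Leydig-like cells, and to at most 142 CPM in any other class. The 15 Sertoli markers summed to 15112 to 24384 CPM in Sertoli-like cells, against 1872 CPM at 144 h and 2315 CPM at 0 h in Leydig-like cells. Outside Sertoli-like cells their highest sum was 5827 CPM, in cells named as red blood. Spermatid RNA was present in the Sertoli-like cells of 556.8 h, where 11 elongating spermatid markers summed to 7905 CPM, against 0.680 to 421 CPM in the 3 earlier libraries. Haemoglobin and other red blood cell markers summed to 10.3 CPM at 144 h and 3856 CPM at 0 h in Leydig-like cells. Markers of differentiating spermatogonia reached 2157 CPM in early meiotic cells, above the 763 to 1151 CPM of the cells named for them, so that neighbouring germ stages overlap. Unnamed cells made up 3.40% to 22.4% of a library, and at 0 h they included 1 cluster of 1647 cells with Sertoli genes among its leading genes.

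**Figure D1:**
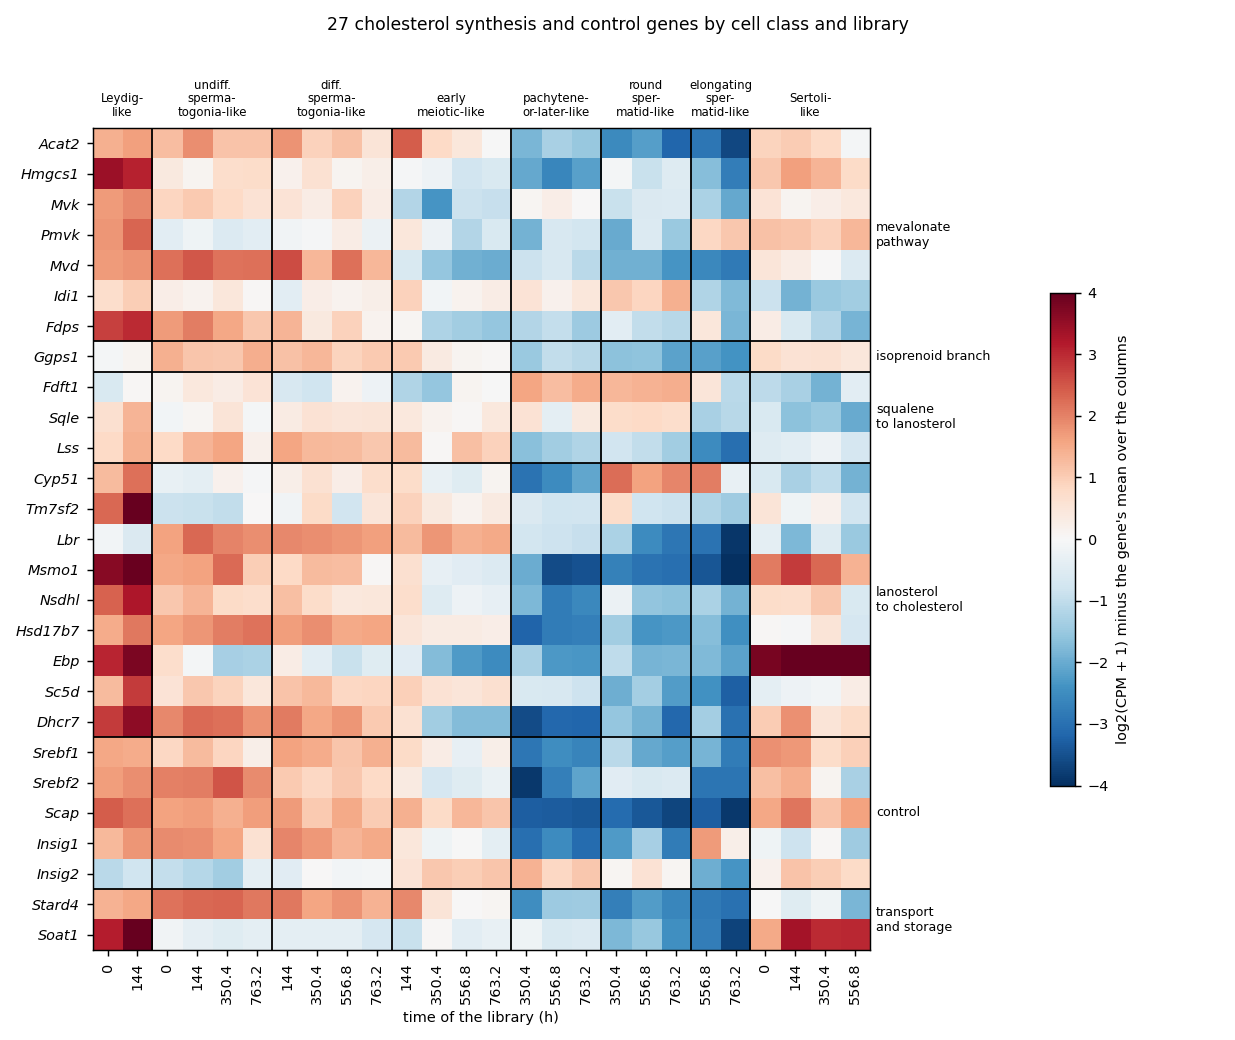
Level of each of the 27 genes (rows, grouped by role) in each class and library (columns), coloured by log2 of CPM plus 1 minus the gene's mean over the columns, red above and blue below that mean. Leydig-like columns are red for most synthesis genes, and pachytene-or-later columns are blue for the lanosterol-to-cholesterol genes and for the control genes other than Insig2.

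Leydig-like cells gave the highest levels for most of the pathway. All 27 genes together made up 3860 CPM at 144 h and 2854 CPM at 0 h in Leydig-like cells. In germ cells the sum was 1351, 1230, 861, 654 and 715 CPM from 0 to 763.2 h, and in Sertoli-like cells it was 1058, 1500, 1254 and 1098 CPM from 0 to 556.8 h. A few abundant genes weigh heavily in these sums. At 144 h in Leydig-like cells Soat1, Fdps, Hmgcs1 and Msmo1 stood at 738, 670, 495 and 297 CPM. Soat1, a storage gene, stood at 346 CPM at 144 h and 97.2 CPM at 0 h in Sertoli-like cells. Leydig-like cells were the highest of 9 classes for 15 genes at 144 h and of 7 classes for 15 genes at 0 h, and 13 genes were in both sets. Over Sertoli-like cells of the same library, 20 of the 27 genes were at least 2-fold higher at 144 h and 17 at 0 h, where 17.0% and 14.2% of all measured genes were.

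Among the mevalonate genes, Hmgcs1, which makes HMG-CoA, stood at 495 CPM at 144 h and 631 CPM at 0 h in Leydig-like cells. It stood at 124, 185, 150.3 and 98.9 CPM in Sertoli-like cells from 0 to 556.8 h, and at no more than 98.4 CPM in any germ stage. Fdps, which makes farnesyl diphosphate, stood at 670.1 CPM at 144 h and 560.1 CPM at 0 h in Leydig-like cells, against 104, 54.6, 37.1 and 22.3 CPM in Sertoli-like cells. No Leydig-like value of either gene overlapped a Sertoli-like value. For this and the later statements of no overlap, the share of all genes so separated was not counted. Many of the genes concerned are named for their large folds in the same sums. Idi1, which isomerizes isopentenyl diphosphate, stood at 155 CPM at 144 h and 129 CPM at 0 h in Leydig-like cells and at 42.3, 20.5, 27.1 and 29.3 CPM in Sertoli-like cells. Mvk, the mevalonate kinase, stood at 50.5 CPM at 144 h and 43.7 CPM at 0 h, against 19.0, 13.8, 15.5 and 17.4 CPM in Sertoli-like cells.

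The sterol end of the pathway was high in the same cells. Cyp51, the lanosterol demethylase, stood at 206 CPM at 144 h and 107 CPM at 0 h in Leydig-like cells, against 28.3, 17.1, 21.3 and 11.1 CPM in Sertoli-like cells. Tm7sf2, a sterol reductase, stood at 52.7 CPM at 144 h and 13.3 CPM at 0 h in Leydig-like cells, and at no more than 4.46 CPM in any Sertoli-like or germ stage sum. Dhcr7, which reduces the last double bond on its branch, stood at 142 CPM at 144 h and 82.9 CPM at 0 h in Leydig-like cells, against 23.4, 41.6, 16.1 and 19.5 CPM in Sertoli-like cells. These groups did not overlap for any of the 3 genes. Tm7sf2 shares exon sequence on the same strand with Vps51, which stood at 10.3 CPM at 144 h and 13.9 CPM at 0 h in Leydig-like cells and at 6.87 to 12.5 CPM in Sertoli-like cells; how shared reads were counted is not given in the sources used here. Fdps shares exon sequence on the same strand with Gm43738, and Ggps1, Lss and Srebf1 overlap Arid4b, 4930483K19Rik and Rai1 on the opposite strand, so their values carry the same uncertainty.

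Ebp, the sterol isomerase, had the opposite order: 96.0 CPM at 144 h and 57.6 CPM at 0 h in Leydig-like cells, against 97.5, 195, 207 and 183 CPM in Sertoli-like cells. Insig2, which retains SCAP, likewise stood at 34.9 CPM at 144 h and 28.2 CPM at 0 h in Leydig-like cells and at 68.8, 135, 121 and 104 CPM in Sertoli-like cells. Every Sertoli-like value of both genes was above every Leydig-like value. Insig1, the other retention protein, stood at 78.5 CPM at 144 h and 55.7 CPM at 0 h in Leydig-like cells, and at 19.5, 12.1, 23.2 and 7.66 CPM in Sertoli-like cells. Soat1, which esterifies cholesterol, stood at 738 CPM at 144 h and 305 CPM at 0 h in Leydig-like cells and at 97.2, 346, 271 and 281 CPM in Sertoli-like cells, and the 0 h Leydig-like level lay below the 144 h Sertoli-like level.

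Classes were tested on UMIs summed per class and library with edgeR's quasi-likelihood test, the library as a block and Benjamini-Hochberg adjustment over 16304 genes at 0.05. Libraries are different times, so the spread in this test is the variation of a class difference over times, and a fitted fold draws on all sums of a class. Between Leydig-like and Sertoli-like cells, 11 of the 27 genes were higher and 1 was lower, where 7.75% of all genes tested were higher and 6.93% lower. The members' median log2 difference was 1.30, against -0.22 over all genes. By role, 4 of 7 mevalonate genes, 2 of 3 squalene genes, 4 of 9 lanosterol-to-cholesterol genes and 1 of 5 control genes were higher. The largest differences were those of Tm7sf2 (log2 difference 3.70 ± 0.71, SE; adjusted p = 0.0011), Fdps (3.16 ± 0.48; adjusted p = 0.00017) and Cyp51 (2.78 ± 0.51; adjusted p = 0.00079). The other higher genes, Sqle, Sc5d, Idi1, Insig1, Nsdhl, Hmgcs1, Mvk and Fdft1, ran from 1.22 to 2.38. Insig2 was the lower gene (-1.44 ± 0.38; adjusted p = 0.011). Leydig-like cells had only 2 libraries: without the 144 h library no member passed in either direction (4 higher at an unadjusted p under 0.05), and without the 0 h library 7 were higher and 0 lower, with the remaining Leydig-like sum assumed to vary like the others.

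Between Leydig-like cells and germ cells, 12 of the 27 genes were higher and 1 was lower, where 13.8% of all genes tested were higher and 15.3% lower. The median was 0.95, against -0.50 over all genes. Of the 9 lanosterol-to-cholesterol genes 7 were higher and 1 lower, of the 7 mevalonate genes 4 were higher, and Soat1 was higher. Soat1 stood at 30.1, 22.3, 25.3, 18.7 and 13.2 CPM in germ cells from 0 to 763.2 h, far under its Leydig-like levels (log2 difference 4.19 ± 0.56; adjusted p = 2.2e-05). Ebp stood at 10.5, 5.72, 2.14, 0.650 and 1.19 CPM in germ cells (4.02 ± 0.58; adjusted p = 4.4e-05), and Tm7sf2 followed (3.82 ± 0.74; adjusted p = 0.00081). The lower gene was Lbr, the lamin B receptor, which is also a sterol reductase (-1.75 ± 0.57; adjusted p = 0.027). None of the 5 control genes and none of the 3 squalene genes passed. Without the 144 h library 3 members were higher and 0 lower, and without the 0 h library 12 were higher and 0 lower. This comparison shares the Leydig-like sums with the one before it.

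Germ cells and Sertoli-like cells differed in both directions. Of the 27 genes, 8 were higher and 7 lower in germ cells than in Sertoli-like cells, where 28.3% of all genes tested were higher and 19.8% lower, shares not far from those of the members. The median was -0.08, against 0.42 over all genes. The largest positive differences were those of Lbr (log2 difference 2.40 ± 0.45; adjusted p = 0.00026), the sterol carrier Stard4 (1.88 ± 0.57; adjusted p = 0.010) and Idi1 (1.61 ± 0.36; adjusted p = 0.0011). Ebp was the lowest in germ cells (-5.55 ± 0.57; adjusted p = 6.1e-07), followed by Soat1 (-3.45 ± 0.47; adjusted p = 9.9e-06) and Msmo1, a methylsterol oxidase (-2.09 ± 0.43; adjusted p = 0.00061). The other lower genes were Hmgcs1, Scap, Pmvk and Srebf1. Without the 144 h library 4 members were higher and 4 lower. Lbr, Ebp, Soat1, Msmo1 and Hmgcs1 passed in each of the 14 settings tried. Lbr has a neighbour, Dnah14, overlapping on the opposite strand, and whether counting used the strand is not given in the sources used here.

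**Figure D2:**
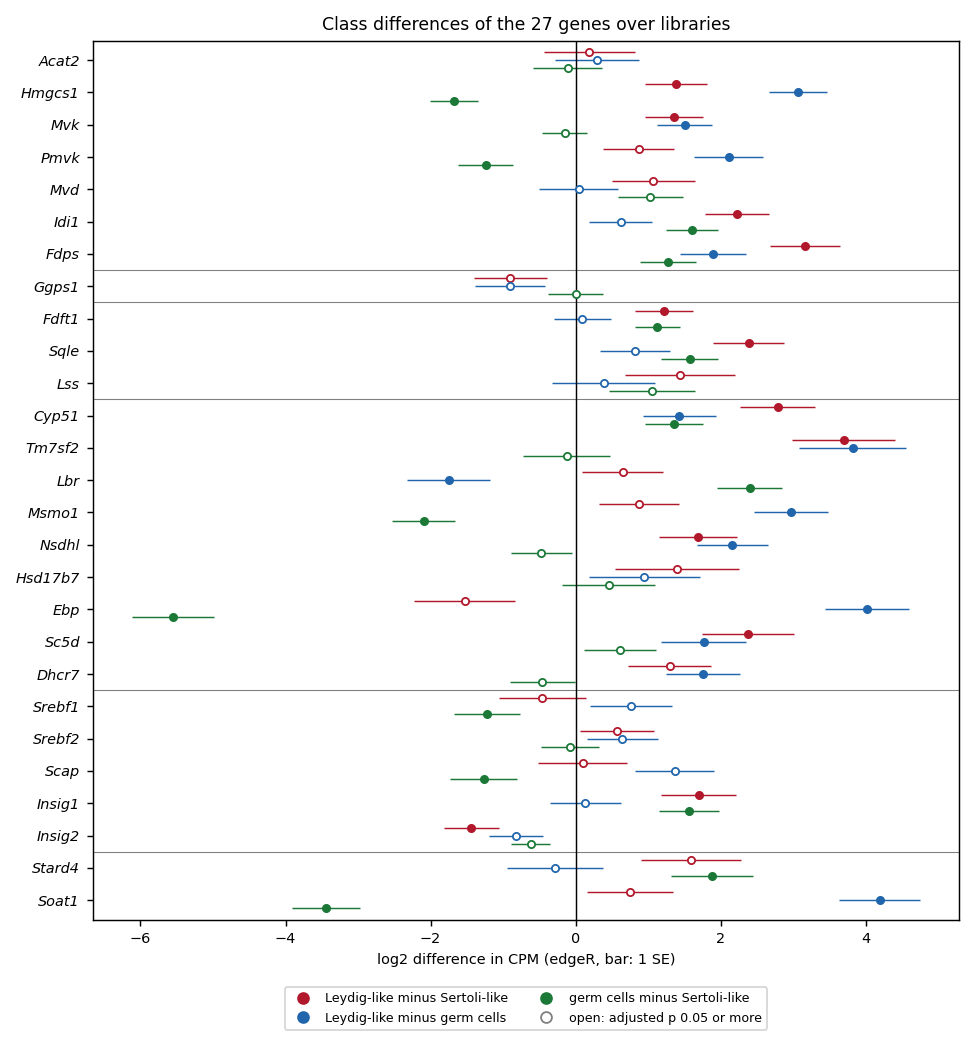
Log2 difference in CPM of each of the 27 genes (rows, grouped by role) for Leydig-like minus Sertoli-like, Leydig-like minus germ and germ minus Sertoli-like cells; bars are 1 SE, and open points had an adjusted p of 0.05 or more. Most points of the Leydig-like comparisons lie right of 0, while Ebp and Soat1 lie far left of 0 for germ minus Sertoli-like cells.

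Within the germ line the pathway changed from stage to stage. The 27 genes together made up 1359, 1540, 1466 and 1243 CPM in undifferentiated spermatogonia-like cells (0, 144, 350.4 and 763.2 h). The sum was 760, 599 and 692 CPM in pachytene-or-later-like spermatocytes and 940, 831 and 897 CPM in round-spermatid-like cells (350.4, 556.8 and 763.2 h). It was 231 CPM at 763.2 h and 637 CPM at 556.8 h in elongating-spermatid-like cells. The stages were tested in a second fit of the same kind over 17899 genes. Between differentiating and undifferentiated spermatogonia-like cells 0 members were higher and 1 was lower, where 7.41% of all genes tested were higher and 10.1% lower; at an unadjusted p under 0.05, edgeR gave 2 higher and 3 lower, and DESeq2 gave 1 higher and 3 lower after adjustment. The lower gene was Srebf2 (-1.24 ± 0.35; adjusted p = 0.024), which encodes the SREBP most tied to cholesterol synthesis. It stood at 29.0, 24.8, 29.2 and 24.0 CPM in differentiating cells from 144 to 763.2 h, against 58.0, 59.2, 81.9 and 52.1 CPM in undifferentiated cells at 0, 144, 350.4 and 763.2 h, and the groups did not overlap. With TMM scaling no member was lower and 2 were higher, and without the 350.4 h or the 763.2 h library 0 passed either way.

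On entry into meiosis 12 of the 27 genes were lower in early meiotic than in differentiating cells and 1 was higher, where 18.8% of all genes tested were lower and 11.4% higher. The median was -0.69, against 0.03 over all genes. Mvd, the mevalonate diphosphate decarboxylase, stood at 4.63, 1.94, 1.29 and 1.21 CPM in early meiotic cells from 144 to 763.2 h, against 51.4, 20.7, 39.0 and 21.0 CPM in differentiating cells (-3.90 ± 0.34; adjusted p = 4.6e-06). Dhcr7 stood at 17.5, 3.60, 2.66 and 2.66 CPM, against 49.5, 34.2, 39.7 and 23.8 CPM (-2.75 ± 0.53; adjusted p = 0.0013). The 2 stages did not overlap for either gene. Ebp was next (-2.06 ± 0.47; adjusted p = 0.0040). Insig2 went the other way, with 89.2, 129, 122 and 133 CPM in early meiotic cells, against 44.1, 62.0, 57.1 and 57.3 CPM in differentiating cells (1.09 ± 0.23; adjusted p = 0.0022). Without the 556.8 h or the 763.2 h library 6 members were lower.

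Pachytene-or-later-like cells had low levels of much of the sterol branch. Against early meiotic cells, 17 of the 27 genes were lower and 3 higher, where 37.9% of all genes tested were lower and 19.9% higher. The median was -1.97, against -0.50 over all genes. Of the 9 lanosterol-to-cholesterol genes 8 were lower, and of the 5 control genes 4 were lower, Insig2 being the exception. Scap stood at 0.952, 0.882 and 0.804 CPM in pachytene-or-later cells (350.4, 556.8 and 763.2 h), against 49.7, 31.6, 47.3 and 40.5 CPM in early meiotic cells from 144 h on (-5.62 ± 0.36; adjusted p = 3.8e-08). Hsd17b7, a sterol ketoreductase, stood at 0, 0.334 and 0.402 CPM, against 11.8, 10.5, 10.6 and 10.2 CPM (-4.85 ± 0.47; adjusted p = 5.5e-07). Srebf1 stood at 0, 0.319 and 0.183 CPM, against 11.7, 8.03, 4.87 and 7.75 CPM (-4.68 ± 0.65; adjusted p = 1.9e-05). The stages did not overlap for these 3 genes, and the fitted folds of genes with sums at 0 depend on the prior count. In all 3 libraries 12 members were at or under 4 CPM in pachytene-or-later cells: Lss, Tm7sf2, Msmo1, Nsdhl, Hsd17b7, Ebp, Dhcr7, Srebf1, Srebf2, Scap, Insig1 and Stard4. The X-linked members are Nsdhl and Ebp, and the other 10 are autosomal. The share of all genes at or under 4 CPM was not counted, and some members were already low before this stage. Tm7sf2 stood at no more than 4.46 CPM in any germ stage. Ebp stood at 4.13, 1.11 and 0.242 CPM in early meiotic cells at 144, 350.4 and 763.2 h.

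Some early steps were higher instead. Fdft1, the squalene synthase, stood at 272, 213 and 254 CPM in pachytene-or-later cells, against 39.0, 30.5, 96.9 and 88.7 CPM in early meiotic cells (1.99 ± 0.35; adjusted p = 0.00018). Its gene overlaps Ctsb on the opposite strand, and Ctsb stood at 0.952, 0.532 and 0.402 CPM in the same pachytene-or-later cells. Mvk stood at 13.3, 15.5 and 12.9 CPM, against 5.07, 1.66, 6.52 and 6.30 CPM (1.53 ± 0.35; adjusted p = 0.0013). Mvd was also higher (1.11 ± 0.38; adjusted p = 0.020), at 3.81, 4.50 and 3.14 CPM. Idi1 did not pass the test and stood at 114, 88.8 and 108 CPM in pachytene-or-later cells. The split was 3 higher and 16 lower with TMM scaling and 6 higher and 16 lower with DESeq2, and 18 of the 20 members that passed did so in each of the 13 settings tried. Insig2 did not pass either, with 159.9, 108 and 130.1 CPM in pachytene-or-later cells.

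In round-spermatid-like cells the sterol branch went both ways. Of the 9 lanosterol-to-cholesterol genes 3 were higher and 2 lower than in pachytene-or-later cells. Against pachytene-or-later cells 7 of the 27 genes were higher and 8 lower, where 28.0% of all genes tested were higher and 21.7% lower, shares close to those of the members. The split was 4 higher and 8 lower with TMM scaling, and 11 higher and 6 lower with DESeq2. Without the 763.2 h library 5 were higher and 1 lower, and without the 350.4 h library 4 were higher and 6 lower. Cyp51 stood at 211, 134 and 173 CPM in round spermatids, against 4.76, 6.81 and 9.64 CPM in pachytene-or-later cells (4.49 ± 0.55; adjusted p = 3.3e-05). Srebf2 stood at 9.48, 8.37 and 8.89 CPM, against 0, 1.19 and 2.34 CPM (2.49 ± 0.43; adjusted p = 0.0003). Nsdhl, a sterol decarboxylating dehydrogenase, stood at 7.58, 2.41 and 2.27 CPM, against 1.90, 0.441 and 0.694 CPM (2.27 ± 0.50; adjusted p = 0.0016). Cyp51 and Srebf2 did not overlap between the stages, and Nsdhl did not either. Hmgcs1, Srebf1, Hsd17b7 and Insig1 were the other higher genes. Hmgcs1 stood at 56.7, 50.7, 33.6 and 37.8 CPM in early meiotic cells, 13.3, 8.68 and 12.2 CPM in pachytene-or-later cells and 55.6, 31.2 and 40.6 CPM in round spermatids. Neighbouring steps share the pachytene-or-later sums.

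The genes furthest below their pachytene level in round spermatids were Mvd at 1.26, 1.29 and 0.684 CPM (-1.96 ± 0.42; adjusted p = 0.0014), Lbr at 7.58, 2.58 and 1.75 CPM (-1.80 ± 0.42; adjusted p = 0.0026) and Acat2, which joins acetyl-CoA units, at 1.90, 2.74 and 0.876 CPM (-1.71 ± 0.43; adjusted p = 0.0043). Other genes of the pathway gave other values: Msmo1 stood at 1.90, 1.45 and 1.37 CPM in round spermatids and 3.81, 0.593 and 0.694 CPM in pachytene-or-later cells, and Fdft1, an earlier step, stood at 229, 237 and 251 CPM in round spermatids. The Cyp51 gene overlaps Akap9 on the opposite strand. Of the 5 printed promoters, that of Cyp51 holds a single CCAAT box near its 3′ end and the others hold 2 or 3. Soat1, Nsdhl, Cyp51, Hmgcs1 and Srebf2 passed in each of the 13 settings tried.

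In elongating-spermatid-like cells the whole transcriptome shifted on the CPM scale, with a median log2 difference from round spermatids of -1.31 over all genes and -1.33 over the members. On that scale 13 of the 27 genes were lower and 2 higher, where 44.1% of all genes tested were lower and 4.78% higher. With TMM scaling, which moves the median of all genes to -0.03, 3 were lower and 5 higher, and with DESeq2, at 0.14, 4 were lower and 8 higher. Without the 763.2 h library 5 were lower and 1 higher on the CPM scale. Soat1, Lbr, Mvk and Sc5d, lower on the CPM scale, changed sign under TMM or DESeq2. Insig1 stood at 26.6 CPM at 763.2 h and 74.0 CPM at 556.8 h in elongating cells, against 3.79, 8.21 and 2.33 CPM in round spermatids (3.40 ± 0.38; adjusted p = 9.4e-06). Pmvk, the phosphomevalonate kinase, stood at 29.5 CPM at 763.2 h and 24.3 CPM at 556.8 h, against 2.53, 8.85 and 4.13 CPM (2.30 ± 0.50; adjusted p = 0.0016). Neither gene overlapped between the stages. Srebf2 was the lowest (-3.27 ± 0.51; adjusted p = 0.00012), followed by Lss, the lanosterol synthase (-3.07 ± 0.58; adjusted p = 0.0006), and Idi1 (-2.60 ± 0.38; adjusted p = 7.6e-05), all 3 further down than the median of all genes. Idi1 stood at 22.2 CPM at 763.2 h and 33.8 CPM at 556.8 h in elongating cells, against 167, 144 and 210.1 CPM in round spermatids.

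**Figure D3:**
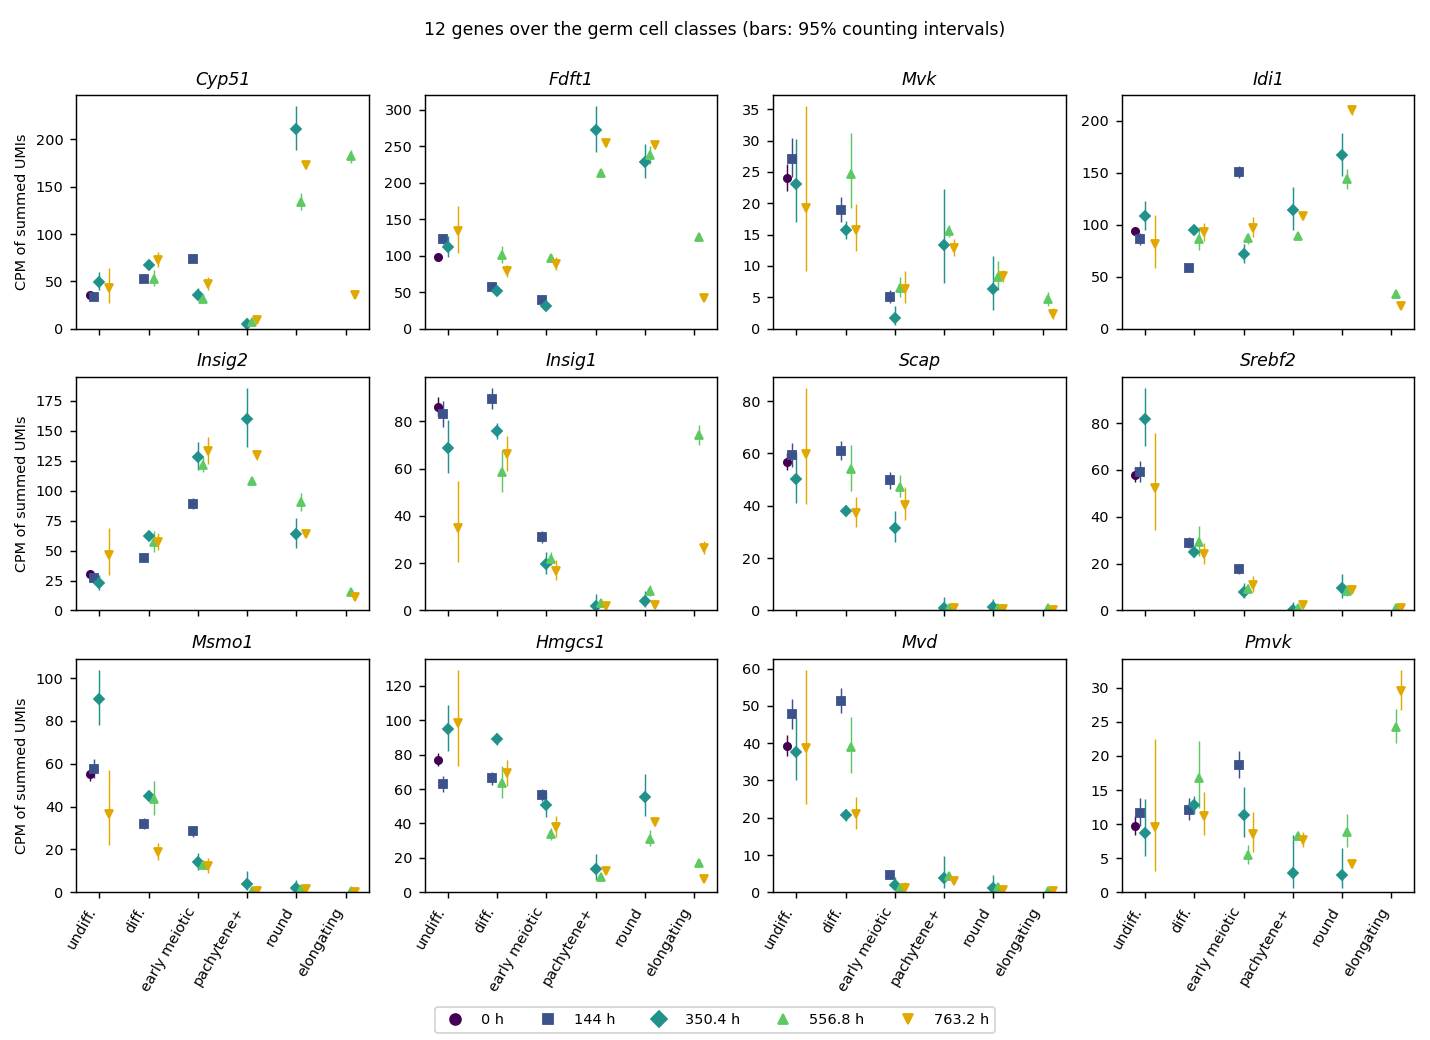
CPM of 12 members (panels) in the 6 germ cell classes in developmental order, with 1 point per library and 95% counting intervals as bars. Cyp51 lies under 10 CPM in pachytene-or-later cells and at 134 to 211 CPM in round spermatids, while Fdft1 lies at 213 to 272 CPM in pachytene-or-later cells.

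Between times no test is possible, since each time had 1 library; ratios carry an exact 95% interval that covers counting error only, and they describe these libraries. In Leydig-like cells 3 of the 27 genes were at least 2-fold higher at 144 h than at 0 h and 0 were at least 2-fold lower, where 4.83% and 9.88% of all measured genes were. The median log2 ratio was 0.33 over the members and -0.10 over all genes. Tm7sf2 was 3.97 times as high (interval 2.81 to 5.72), Sc5d, a sterol desaturase, 2.95 times (2.39 to 3.67) and Soat1 2.42 times (2.25 to 2.62). Sc5d stood at 112 CPM at 144 h and 37.9 CPM at 0 h. Leydig-like cells had a median of 20504 UMIs a cell at 144 h and 5129 at 0 h, and the red blood cell markers given above differed too; the part of either in these ratios was not tested.

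In Sertoli-like cells 1 gene was at least 2-fold higher at 144 h than at 0 h and 4 were at least 2-fold lower, where 11.5% and 18.0% of all measured genes were. Soat1 was 3.56 times as high at 144 h (3.41 to 3.71), and it stayed between 271 and 346 CPM in the later libraries. Lbr stood at 4.86 CPM at 144 h and 14.5 CPM at 0 h, a ratio of 0.335 (0.275 to 0.406). Sertoli-like cells had a median of 9652 UMIs a cell at 144 h and 15033 at 0 h, and the part of that in these ratios was not tested. From 144 to 350.4 h 1 gene was at least 2-fold higher and 4 lower, where 14.0% and 8.66% of all measured genes were, and no interval lay wholly beyond 2-fold. From 350.4 to 556.8 h 1 was higher and 6 lower among 26 measured members, where 13.3% and 6.61% of all measured genes were, and the median was -0.56, against -0.06 over all genes. Among the 7 members with at least 100 UMIs in either sum 0 were 2-fold apart (median -0.22), and with cells of at least 5000 UMIs the median was -0.21. The higher gene was Fdft1, with 66.9 CPM at 556.8 h and 23.9 CPM at 350.4 h, a ratio of 2.80 (2.05 to 3.85). Germ cells had 182 CPM of Fdft1 at 556.8 h and 57.2 CPM at 350.4 h, and the spermatid and pachytene markers in Sertoli-like cells were higher at 556.8 h too; their part in the Fdft1 ratio was not tested. The ratio was 2.64 with free RNA subtracted and 1.72 with every cell given the same weight.

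**Figure D4:**
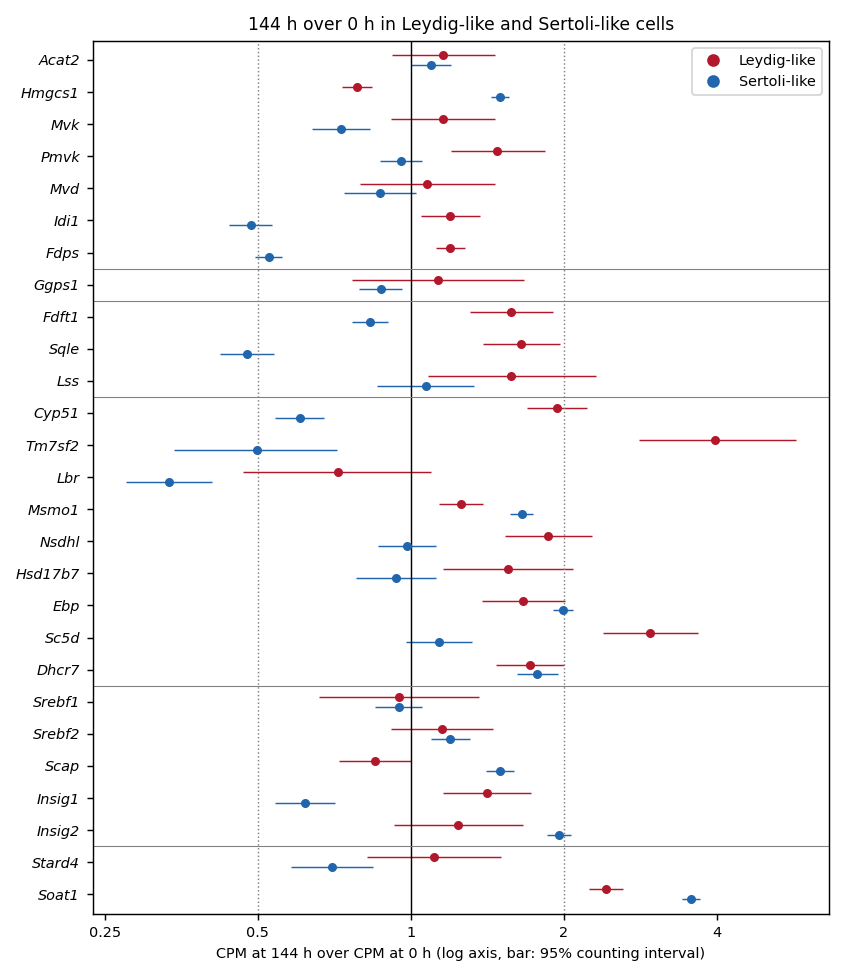
CPM at 144 h over CPM at 0 h (log axis) of each of the 27 genes in Leydig-like and Sertoli-like cells, with 95% counting intervals as bars and dotted lines at 2-fold. Tm7sf2, Sc5d and Soat1 lie wholly above 2-fold in Leydig-like cells, and Soat1 alone does in Sertoli-like cells.

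Germ cells as a whole had lower levels of many members in the later libraries. At 144 h against 0 h 1 member was at least 2-fold higher and 0 lower, where 17.4% and 18.3% of all measured genes were; the gene was Tm7sf2, with 2.65 CPM at 144 h and 0.575 CPM at 0 h. At 350.4 h against 144 h 0 members were higher and 9 lower, where 24.7% and 22.5% of all measured genes were. The 9 were Acat2, Mvd, Fdps, Nsdhl, Ebp, Dhcr7, Srebf2, Scap and Stard4, with ratios of 0.253 to 0.446. At 556.8 h against 350.4 h 1 member was higher and 17 lower, where 28.4% and 35.4% of all measured genes were, and the median was -1.41, against -0.31 over all genes. Fdft1 was 3.18 times as high (3.07 to 3.29), and the lowest ratio was that of Msmo1, 0.147 (0.130 to 0.164), with 3.40 CPM at 556.8 h and 23.2 CPM at 350.4 h. At 763.2 h against 556.8 h 0 members were higher and 1 lower, where 14.2% and 4.57% of all measured genes were.

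The mix of stages behind those sums differed between times. Undifferentiated spermatogonia-like cells were 2210 of 2231 germ cells at 0 h, and pachytene-or-later cells were 31 of 3035 at 350.4 h and 4568 of 8008 at 556.8 h. Within a stage, values can be set side by side for pairs of libraries with enough cells of it. Between 144 h and 0 h, 0 of 26 measured members were at least 2-fold higher or lower in undifferentiated spermatogonia-like cells, where 4.04% and 9.0% of all measured genes were. Between 763.2 h and 556.8 h, 0 of 25 moved that far in early meiotic cells (4.58% and 3.45% of all measured genes) and 0 of 27 in pachytene-or-later cells (9.8% and 3.02%). In round spermatids 5 of 25 were 2-fold lower or more at 763.2 h than at 556.8 h and 0 higher, where 15.6% and 3.55% of all measured genes were, and Insig1 had the ratio 0.283 (0.198 to 0.409). In elongating cells 12 of 18 were 2-fold lower or more at 763.2 h and 0 were higher by as much, where 29.9% and 1.22% of all measured genes were. Cyp51 had 35.4 CPM at 763.2 h and 182 CPM at 556.8 h there (ratio 0.194, 0.176 to 0.214), and Fdps had 22.8 CPM at 763.2 h and 116 CPM at 556.8 h (ratio 0.197, 0.174 to 0.223). Fdft1 (0.339), Insig1 (0.359) and Dhcr7 (0.142, from 7 UMIs at 763.2 h and 58 at 556.8 h) also lay wholly beyond 2-fold.

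**Figure D5:**
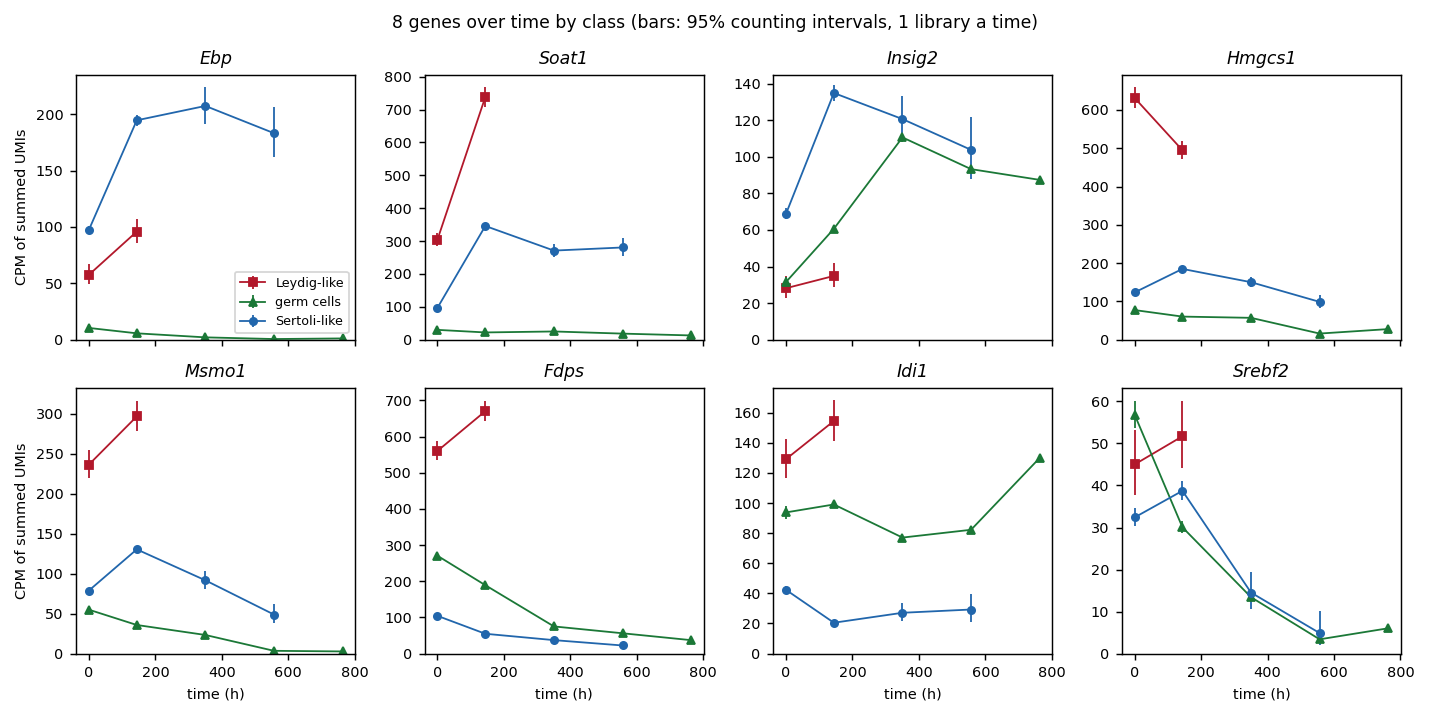
CPM of 8 members (panels) in Leydig-like, germ and Sertoli-like cells against time in hours, with 95% counting intervals as bars and 1 library a time. Soat1 and Ebp lie lower in germ cells than in Sertoli-like cells at every time that has both, and Msmo1 and Srebf2 of germ cells lie lower at 556.8 h than at 0, 144 or 350.4 h.

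Genes beside the pathway were counted in the same fits. Of all genes tested, 7.75% were higher and 6.93% lower in Leydig-like than in Sertoli-like cells. In Leydig-like against germ cells 13.8% were higher and 15.3% lower. In germ against Sertoli-like cells 28.3% were higher and 19.8% lower. Of 12 genes of fatty acid synthesis, 2 were higher and 1 lower in Leydig-like than in Sertoli-like cells, 8 higher and 2 lower in Leydig-like than in germ cells, and 2 higher and 8 lower in germ cells than in Sertoli-like cells. Elovl6, a fatty acid elongase, stood at 165 CPM at 144 h and 54.1 CPM at 0 h in Leydig-like cells, against 9.88, 1.60, 0 and 0 CPM in Sertoli-like cells from 0 to 556.8 h (5.21 ± 0.94; adjusted p = 0.00068). The desaturase Fads1 was also higher (2.07 ± 0.54; adjusted p = 0.010), and Acaca, which starts fatty acid synthesis, was lower (-2.05 ± 0.57; adjusted p = 0.016). Against germ cells the largest were Fads2 (4.65), Fads1 (4.45) and Scd2 (3.84), and Scd2, a desaturase, had the largest difference of germ from Sertoli-like cells (-5.59 ± 0.69; adjusted p = 3.3e-06). Of the 12, 7 were lower and 1 higher in early meiotic than in differentiating cells, where 18.8% and 11.4% of all genes tested were. In pachytene-or-later against early meiotic cells 6 were lower and 1 higher, where 37.9% and 19.9% of all genes tested were. In round spermatids against pachytene-or-later cells 3 were higher and 2 lower, near the 28.0% and 21.7% of all genes tested. Those higher in round spermatids were Elovl6 (5.01), Elovl5 (4.19) and Acaca (2.08).

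Of 19 genes tested for sterol transport, ester storage, oxysterols and SREBP processing, 2 were higher and 1 lower in Leydig-like than in Sertoli-like cells. They were Cyp27a1, a sterol hydroxylase of mitochondria (3.70 ± 0.98; adjusted p = 0.012), Tmem97 (1.42 ± 0.42; adjusted p = 0.024) and, lower, the sterol exporter Abcg1 (-3.69 ± 0.98; adjusted p = 0.012). In Leydig-like against germ cells 5 were higher and 2 lower, and in germ against Sertoli-like cells 3 were higher and 8 lower. The shares of all genes tested, here and in the germ stages below, are those given beside the fatty acid genes. The 4 higher and 4 lower of 17 in round spermatids, below, lie near those shares. In pachytene-or-later against early meiotic cells 10 of 17 were lower and 2 higher; Mbtps2, a protease that cleaves SREBP, stood at 1.90, 0.365 and 0.548 CPM, against 26.0, 9.69, 17.1 and 15.3 CPM (-4.90 ± 0.59; adjusted p = 4.3e-06). In round spermatids 4 were higher and 4 lower than in pachytene-or-later cells, and the largest positive difference was that of Osbp, an oxysterol-binding protein, at 106, 63.6 and 93.6 CPM, against 6.66, 7.25 and 14.9 CPM (3.19 ± 0.30; adjusted p = 5.9e-06). Of 12 genes of the isoprenoid branches, 0 were higher or lower in Leydig-like than in Sertoli-like cells, and 9 were lower and 1 higher in pachytene-or-later than in early meiotic cells, led by Pdss1 of ubiquinone synthesis (-6.21 ± 0.51; adjusted p = 1.4e-07). Of 7 genes of steroid hormone synthesis, 6 were higher in Leydig-like than in Sertoli-like cells and 7 than in germ cells, but most of them are the markers that named the Leydig-like cells.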

How the data were processed

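Whole testes were dissociated and profiled as 5 droplet libraries, 1 per time, taken from the sample titles. The deposited matrices give the authors' unnormalized UMI counts of each gene in each barcode, and per the file headers Cell Ranger 3.0.2 wrote them. The submitters' processing notes name mm10 and Seurat 4.3.0.1 without their role. Neither the kit nor the strand setting nor the way cells were called is given in the sources used here.

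Barcodes had to hold 1000 UMIs and 500 genes or more, under 20% mitochondrial UMIs and a Scrublet score under 0.25. At 0, 144, 350.4, 556.8 and 763.2 h this removed 235, 2254, 1677, 0 and 0 barcodes for low content, 38, 607, 916, 562 and 512 for mitochondrial share and 150, 333, 190, 319 and 393 as doublets, and left 7736, 6369, 4658, 8420 and 11082 cells. Median UMIs per barcode were 4028, 7551, 2864, 6099 and 3075. For clustering, 3000 variable genes without the members and neighbouring lists were chosen with scanpy 1.11.5. The 40 components and 15 neighbours came from scikit-learn 1.9.0. The Leiden method of leidenalg 0.10.2 at resolution 2, on a graph of python-igraph 0.11.9, gave 64 clusters, named from marker lists. UMIs were summed per class and library (at least 20 cells), since cells are not replicates, and given as CPM. Class differences were tested with edgeR 4.0.16 in R 4.3.3 (library block, total counts as library size, filterByExpr at 10 counts, 14 residual degrees of freedom for classes and 10 for germ stages); DESeq2 1.42.0, TMM scaling and other settings were alternatives. The fits were tested on simulated data; a gene that did not pass is not shown to be unchanged. A gene was measured over time from 20 UMIs in either sum, with 3 counts in place of 0, and ratios have exact conditional binomial 95% intervals. Small sums, such as those of 53 Sertoli-like cells at 556.8 h, 31 pachytene-or-later cells at 350.4 h and 35 undifferentiated cells at 763.2 h, carry more counting error.

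The members and the gene lists were chosen with earlier results of these data known. The naming thresholds, the doublet score and 3 alternatives (only libraries holding both classes, unnamed cells led by Sertoli genes added, and the steps from undifferentiated to early meiotic cells) were chosen after seeing the data. Named in full are the 3 highest and 3 lowest members past the threshold in a class comparison, members with at least 50 UMIs whose time interval lies wholly beyond 2-fold, and up to 3 genes of each neighbouring list. Nothing says which animals gave the libraries, so p-values measure the spread between these libraries. Promoter sequences are RefSeq's for GRCm38.p6. Levels are not compared between genes.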

Additional observations from a re-analysis of the deposited data

Results flagged for a closer look

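For 8 members the 95% intervals of the ratio of 144 h to 0 h lay wholly on one side of no difference in Leydig-like cells and wholly on the opposite side in Sertoli-like cells, with 1 library at each time, and the difference between the classes was not tested. The share of all genes that meet this rule was not counted, so the count of members has no background beside it. The intervals cover counting error only, and in large sums small ratios can meet the rule. The value given for each gene is the ratio of CPM at 144 h over 0 h in Leydig-like cells divided by the same ratio in Sertoli-like cells. Tm7sf2 had ratios of 3.97 in Leydig-like and 0.498 in Sertoli-like cells, a quotient of 7.97. Sqle had 1.65 and 0.476, in the same order of classes, a quotient of 3.46. Cyp51 had 1.94 in Leydig-like and 0.604 in Sertoli-like cells, a quotient of 3.21. Idi1 had 1.20 and 0.484, a quotient of 2.47, and Fdps had 1.20 and 0.525, a quotient of 2.28. The quotient of Insig1 was also 2.28, from 1.41 in Leydig-like and 0.619 in Sertoli-like cells. Fdft1 had 1.58 and 0.832, a quotient of 1.90. Among these 8, Hmgcs1 alone was lower at 144 h in Leydig-like cells and higher in Sertoli-like cells, with 0.784 in Leydig-like and 1.497 in Sertoli-like cells, a quotient of 0.523. The Leydig-like cells were deeper at 144 h than at 0 h. Sertoli-like cells went the other way, with a median of 9652 UMIs a cell at 144 h and 15033 at 0 h. The part of either in these ratios was not tested.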

How the results depend on the processing

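No member given with fold and adjusted p changed sign under a setting tried; the 4 further members named for elongating cells change sign with the scaling. Which of the higher and lower counts was the larger did change in some comparisons. Among them were differentiating against undifferentiated cells under TMM, and elongating against round cells under TMM and DESeq2. Round spermatids against pachytene-or-later cells changed under DESeq2 and without the 763.2 h library. Sertoli-like cells at 144 h against 0 h changed under 10% mitochondrial UMIs or with cells weighted the same (values above or below). Of the class and time summaries, 267 stayed within 1.5 times their value or within the spread used for medians and 35 moved; of the single-gene results 449 stayed on the same side of the threshold and 29 fell below it. Leaving out 1 library at a time gave 0 to 11 members higher and 0 to 1 lower in Leydig-like than in Sertoli-like cells, 3 to 12 higher and 0 to 1 lower in Leydig-like than in germ cells, and 4 to 8 higher and 4 to 7 lower in germ than in Sertoli-like cells. It gave 0 to 1 lower in differentiating than in undifferentiated cells, 6 to 12 lower in early meiotic than in differentiating cells, 4 to 7 higher and 1 to 8 lower in round spermatids than in pachytene-or-later cells, and 1 to 2 higher and 5 to 13 lower in elongating than in round cells. With free RNA subtracted, 6 members were higher in Leydig-like than in Sertoli-like cells, 0 lower than in germ cells and 0 lower in differentiating than in undifferentiated cells. Under 10% mitochondrial UMIs, 3 were higher in germ than in Sertoli-like cells and 0 lower in differentiating than in undifferentiated cells. With libraries holding both classes only, 2 were lower in Leydig-like than in germ cells, and at resolution 1, 2 were lower in differentiating than in undifferentiated cells. TMM scaling gave 2 higher and 0 lower in differentiating than in undifferentiated cells, 4 higher in round spermatids, and 5 higher and 3 lower in elongating cells. DESeq2 gave 1 higher and 3 lower in differentiating than in undifferentiated cells, 6 higher in pachytene-or-later than in early meiotic cells, 11 higher in round spermatids, and 8 higher and 4 lower in elongating cells. Between 144 h and 0 h the count of Sertoli-like members at least 2-fold apart, 1 higher and 4 lower, was 3 higher and 3 lower with the unnamed cells led by Sertoli genes added, 2 higher and 1 lower under 10% mitochondrial UMIs, and 3 higher and 1 lower with every cell given the same weight. The cause of these moves was not tested, apart from those that leave out sums. Between 556.8 h and 350.4 h, Sertoli-like cells had 0 members 2-fold apart among the 7 with at least 100 UMIs in either sum. No paired analysis was possible because no replicate numbers are given by which libraries of different times could be paired; classes were compared within libraries, with the library as the block.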
